A study of Mus musculus with 288 samples.

Results

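The 7 genes described here belong to the MHC class II route of antigen presentation in the mouse: H2-Aa, H2-Ab1, H2-Eb1, H2-DMa, H2-DMb1, Cd74 and Ciita. They were taken by gene symbol from 35904 genes, and all 7 were found in each of the 12 expression tables (6 tissues under 2 treatments). Male wild-type C57BL/6J mice, 8 weeks old, spent 7 days either in normoxia (21% oxygen) or in intermittent hypoxia (IH), in which oxygen fell repeatedly from 21% to 8% during the inactive phase of the day. Both groups then stayed in darkness without hypoxia, and lung, liver, kidney, skeletal muscle, heart and cerebellum were collected on the second dark day at 8 time points 3 hours apart. With 3 replicates per time point there were 24 libraries per tissue and treatment and 288 in all. Poly(A) RNA was sequenced and the deposited values are TPM, a relative transcript abundance corrected for transcript length. No engineered allele is given for these mice, and oxygen is the only difference between the arms that the labels name. The question for these genes was where they are expressed, whether IH changed their mean level over 24 hours, and whether they followed the time of day.

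MHC class II molecules are pairs of an alpha and a beta chain that show peptides from engulfed proteins to CD4+ T cells. H2-Aa and H2-Ab1 encode the alpha and beta chain of the A molecule, and H2-Eb1 encodes the beta chain of the E molecule. Cd74 is the invariant chain that fills the groove of new class II molecules until they reach the endosome, and H2-DMa with H2-DMb1 forms the exchange factor that swaps its last fragment for a peptide. Ciita is the transactivator that switches on class II genes. It binds no DNA itself and acts through factors bound to the X and Y boxes of their promoters. B cells, dendritic cells and macrophages are the usual sources of class II transcripts, and some epithelial cells, such as alveolar type 2 cells of the lung, also make them.

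In the GENCODE M21 annotation of GRCm38, 5 of the genes lie together on chromosome 17: H2-DMa at chr17:34119541-34139101, H2-DMb1 at chr17:34153072-34160230, H2-Ab1 at chr17:34257689-34269419 and H2-Eb1 at chr17:34305867-34316674 on the plus strand, and H2-Aa at chr17:34282744-34287823 on the minus strand. Ciita lies at chr16:10480059-10528418 on the plus strand. RefSeq promoter windows (GRCm38.p6, 250 bases before to 50 bases after a gene start) were held for 4 of the 7 genes, in 5 windows. H2-Ab1, Cd74 and Ciita had none. The promoter stretches of H2-Eb1 and H2-Aa are shown because both genes were among those lower in the lung under IH. They also differ in whether the letters ACNGATG, searched for as the X box core, stand before the Y box core. Capitals mark the X box core (ACNGATG) and the Y box core (ATTGG in H2-Eb1, GATTGG in H2-Aa), each written 5′ to 3′ on the strand of the gene.

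H2-Eb1 (chr17:34305764-34305822, plus strand): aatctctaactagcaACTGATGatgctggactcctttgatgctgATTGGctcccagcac
H2-Aa (chr17:34287857-34287922, minus strand): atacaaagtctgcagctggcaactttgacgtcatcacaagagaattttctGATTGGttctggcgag

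In H2-Eb1 the X box core starts at -88 and the Y box core at -59 from the gene start, 22 bases apart. H2-DMb1 holds the same ordered pair 23 bases apart, with its X box core at -91 from the RefSeq start. That stretch (chr17:34153085-34153144) lies inside the GENCODE M21 gene, which starts at 34153072, so it is upstream only by RefSeq. H2-Aa has GATTGG at -49, and its one match to ACNGATG lies on the opposite strand at -232, so it holds no ordered pair by these letters. An X box with other letters would be missed by this search. Of the 2 H2-DMa windows, 1 holds GATTGG and neither holds ACNGATG. Searched on both strands, ACNGATG followed by ATTGG on the same strand after a gap of 10 to 30 bases was found in 52 of 32851 windows (0.158%). GATTGG alone was found in 16.1% of windows and ACNGATG alone in 9.85%. H2-Eb2, H2-DMb2 and H2-D1 were among the other genes with the ordered pair.

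Each library summed to 989211 to 999188 TPM, and 0 were identical to another. Since TPM keeps no read count, depth is unknown. The summed identity markers of each of the 6 tissues had their highest median in the tissue of that label, but some libraries also held markers of another tissue. Of 48 heart libraries, 6 held more than 100 TPM of lung markers, muscle libraries held up to 293.5 TPM of them, 1 IH liver library (replicate 2 at 13:30) held 3401 TPM of heart markers, 1 IH lung library 373.8 TPM of liver markers, and cerebellum libraries up to 3776 TPM of heart and 2778 TPM of muscle markers. The IH cerebellum library of replicate 3 at 1:30 had only 220.1 TPM of cerebellum markers and the highest Cd74 of that tissue (59.7 TPM). In the lung, IH libraries had 23622 to 28284 genes above 0 TPM, against 21746 to 25400 in normoxia. 9 IH lung libraries exceeded every normoxia library in that number, 5 of replicate number 1, 4 of number 2 and 0 of number 3. The lung changes are given with and without these 9.

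In normoxia the lung held the highest level of all 7 genes (mean TPM ± SD over 24 libraries). Cd74 (chr18:60803848-60812652, plus strand) was the most abundant, at 1414.6 ± 265 TPM in the lung against 237.0 ± 64.5 in muscle, 179.4 ± 103.7 in heart, 116.9 ± 22.9 in kidney, 68.3 ± 22.6 in liver and 19.3 ± 7.86 in cerebellum. H2-Aa stood at 515.6 ± 74.3 TPM in the lung, 109.3 ± 27.6 in muscle, 82.3 ± 47.7 in heart, 66.7 ± 12.5 in kidney, 28.9 ± 10.8 in liver and 7.39 ± 2.89 in cerebellum. H2-Ab1 and H2-Eb1 followed the same order of tissues, from 461.6 ± 58.6 and 466.9 ± 62.0 TPM in the lung down to 8.71 ± 3.18 and 9.48 ± 3.57 in the cerebellum. The 3 chains of the A and E molecules thus lay within a narrow range of each other in every tissue.

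The peptide exchange factor and the transactivator were lower and ordered differently. H2-DMa had 66.0 ± 9.67 TPM in the lung and 12.5 ± 2.96 in muscle, and its lowest level was in the liver (4.23 ± 0.986), below the cerebellum (6.13 ± 1.05). H2-DMb1 had 58.3 ± 8.18 TPM in the lung, and the kidney came next (13.4 ± 1.89), ahead of muscle (9.03 ± 2.52), heart (6.07 ± 2.96), liver (3.07 ± 0.901) and cerebellum (1.496 ± 0.326). Ciita reached 10.8 ± 2.98 TPM in the lung and between 0.421 ± 0.179 (liver) and 1.05 ± 1.26 (cerebellum) elsewhere. The ratio of the lung to the next tissue was 4.72 for H2-Aa, 4.28 for H2-Ab1, 3.77 for H2-Eb1, 5.30 for H2-DMa, 4.36 for H2-DMb1, 5.97 for Cd74 and 10.3 for Ciita. All 24 lung libraries lay above every library of the next tissue for 6 of the genes, and 23 did for Ciita. These are TPM as deposited. Scaling by the median of ratios over the normoxia libraries of all tissues kept the lung highest for every gene but lowered the ratios to 2.58 for H2-Aa, 2.34 for H2-Ab1, 2.06 for H2-Eb1, 2.89 for H2-DMa, 2.67 for H2-DMb1 and 3.26 for Cd74. It also turned the order of H2-DMa in cerebellum and liver, to 4.58 against 7.13 TPM.

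**Figure D1:**
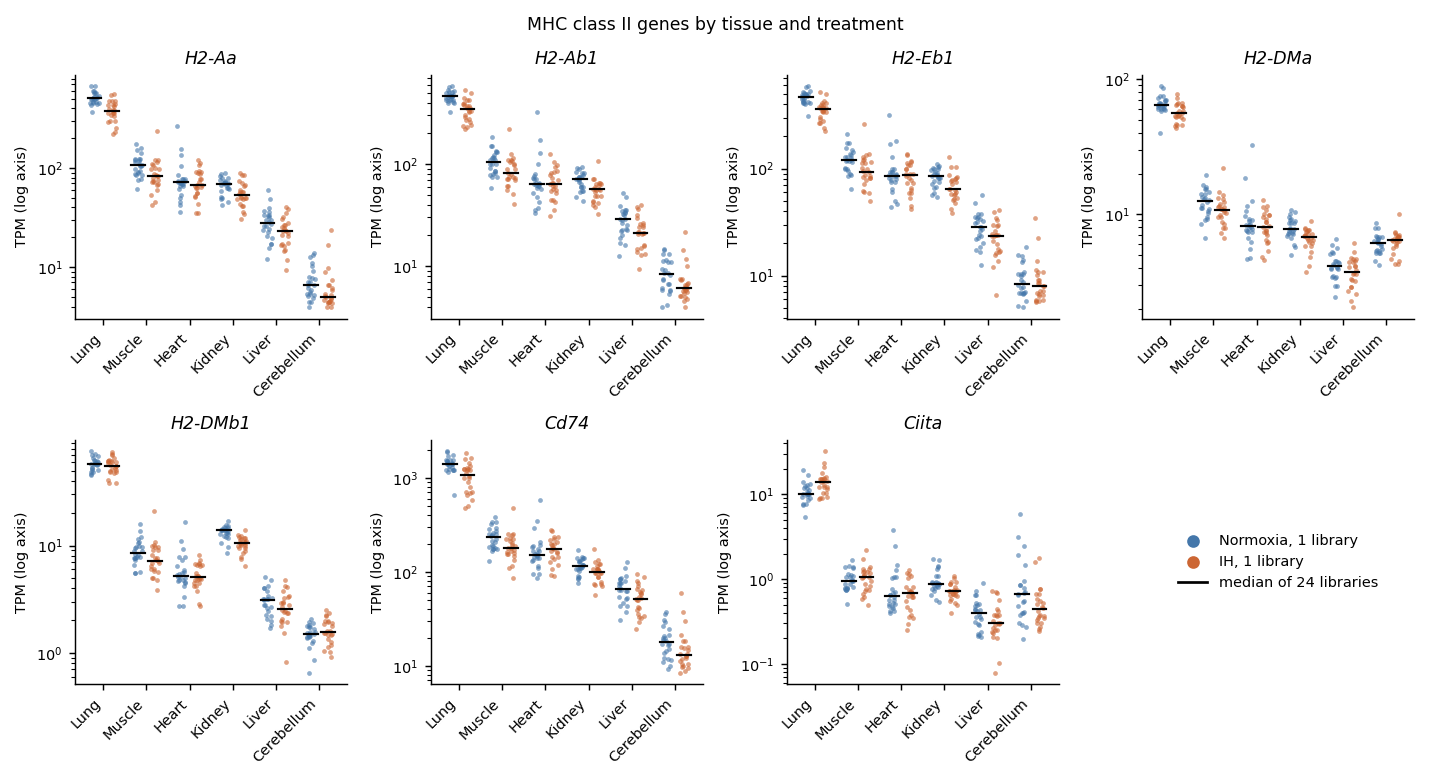
TPM (log axis) of each class II gene in 6 tissues, with 1 point per library (24 per tissue and treatment), normoxia in blue and IH in orange, and a black bar at the median. The lung stands above the other tissues for all 7 genes, from a normoxia mean of 10.8 TPM for Ciita to 1414.6 TPM for Cd74.

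Neighbours in the order of tissue means were compared with a 2-sided permutation test (100000 resamples, Benjamini-Hochberg adjusted over 35 comparisons of 7 genes and 5 neighbouring pairs). The test is unpaired and takes all libraries as independent, although the labels do not record whether tissues share mice. 27 of the 35 passed an adjusted p of 0.05, among them lung against the next tissue for every gene (p = 1e-05, the smallest the resamples can give). Muscle and heart were not told apart for H2-Eb1 (adjusted p = 0.0744 by permutation). Heart and kidney were not told apart for H2-Aa, H2-Ab1, H2-Eb1 and H2-DMa (permutation, adjusted p from 0.143 to 0.616). For Ciita, cerebellum, muscle, kidney and heart were not told apart (permutation, adjusted p from 0.742 to 0.884). These calls between neighbours depended on scaling and replicates. With the scaling over all tissues, heart was above kidney for those 4 genes (ratios from 1.502 to 1.678, permutation, adjusted p of at most 0.000107), while muscle and heart were no longer told apart for H2-Aa, H2-Ab1, H2-DMa and Cd74 (permutation, adjusted p from 0.185 to 0.300), and without replicate number 1 or 2 they were not either.

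In the heart, 1 normoxia library, replicate 3 at 7:30, had the highest level of all 7 genes (Cd74 582.8 TPM against a heart median of 152.6). It held 1507 TPM of T cell markers, against a normoxia heart median of 3.32, and 1556 TPM of lung markers. The next highest in Cd74, replicate 3 at 19:30 (344.7 TPM), held 1018 TPM of T cell and 368.0 TPM of lung markers, while the heart library with the most lung markers (1984 TPM) had 194.3 TPM of Cd74. Their part in these levels was not tested.

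In the lung, 6 of the 7 class II genes were lower after IH and Ciita was not. H2-Aa had a lowest, median and highest value of 366.3, 504.0 and 678.0 TPM in normoxia and of 219.5, 377.0 and 554.3 in IH. The groups overlapped, but 22 of 24 IH libraries lay below the normoxia median and 11 below every normoxia library. Fitted with limma on log2(scaled TPM + 0.5), the change was -0.77 ± 0.088 (log2, SE, n = 24 against 24, Benjamini-Hochberg adjusted p = 2.12e-10), which is 0.587 of the normoxia level. Its partner H2-Ab1 ran over 327.0, 462.5 and 586.1 TPM in normoxia and 218.5, 342.9 and 536.3 in IH, with 10 IH libraries below all of normoxia and a log2 change of -0.76 ± 0.084 (limma adjusted p = 8.68e-11). H2-Eb1 ran over 310.7, 472.1 and 597.6 TPM in normoxia and 225.5, 360.9 and 523.5 in IH, with 7 IH libraries below all of normoxia and a log2 change of -0.71 ± 0.078 (limma adjusted p = 5.10e-11). For each of the 3 chains the IH mean was the lower one at 8 of 8 time points.

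Cd74, the most abundant of the 7 genes in the lung, also had the widest spread there in TPM. Its lowest, median and highest values were 659.5, 1410.3 and 1934.4 TPM in normoxia and 475.4, 1082.4 and 1845.4 in IH. The groups overlapped over most of that range, with 20 IH libraries below the normoxia median and 4 below every normoxia library, and the log2 change was -0.78 ± 0.127 (limma adjusted p = 5.88e-07). The exchange factor had smaller changes. H2-DMa ran over 39.9, 64.7 and 89.6 TPM in normoxia and 43.3, 56.0 and 78.1 in IH, so that 0 IH libraries lay below all of normoxia and 18 lay below its median, for a log2 change of -0.51 ± 0.062 (limma adjusted p = 1.16e-09). H2-DMb1 ran over 45.9, 58.1 and 76.4 TPM in normoxia and 38.6, 55.8 and 75.1 in IH. Its raw TPM groups overlapped almost completely, with 13 of 24 IH libraries below the normoxia median, and its log2 change on the scaled values was -0.37 ± 0.063 (limma adjusted p = 1.23e-06).

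Ciita was the exception. It had 5.46, 10.2 and 19.3 TPM in normoxia and 8.75, 14.1 and 32.5 in IH as lowest, median and highest, and only 4 of 24 IH libraries lay below the normoxia median. On the scaled values the log2 change was 0.09 ± 0.098 (limma adjusted p = 0.404, 95% interval -0.10 to 0.28), so it did not pass the test.

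The 6 genes that passed are to be read against the whole lung, in which 41.5% of 15426 genes tested were lower in IH at the same threshold. With a 1.5-fold change required as well, 4 of the 7 class II genes (H2-Aa, H2-Ab1, H2-Eb1 and Cd74) passed, against 4.39% of all genes. The median change of the 7 genes was -0.71 on the log2 scale, and that of all genes tested was -0.08. In bulk tissue, fewer cells of a type and less RNA per cell cannot be told apart.

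**Figure D2:**
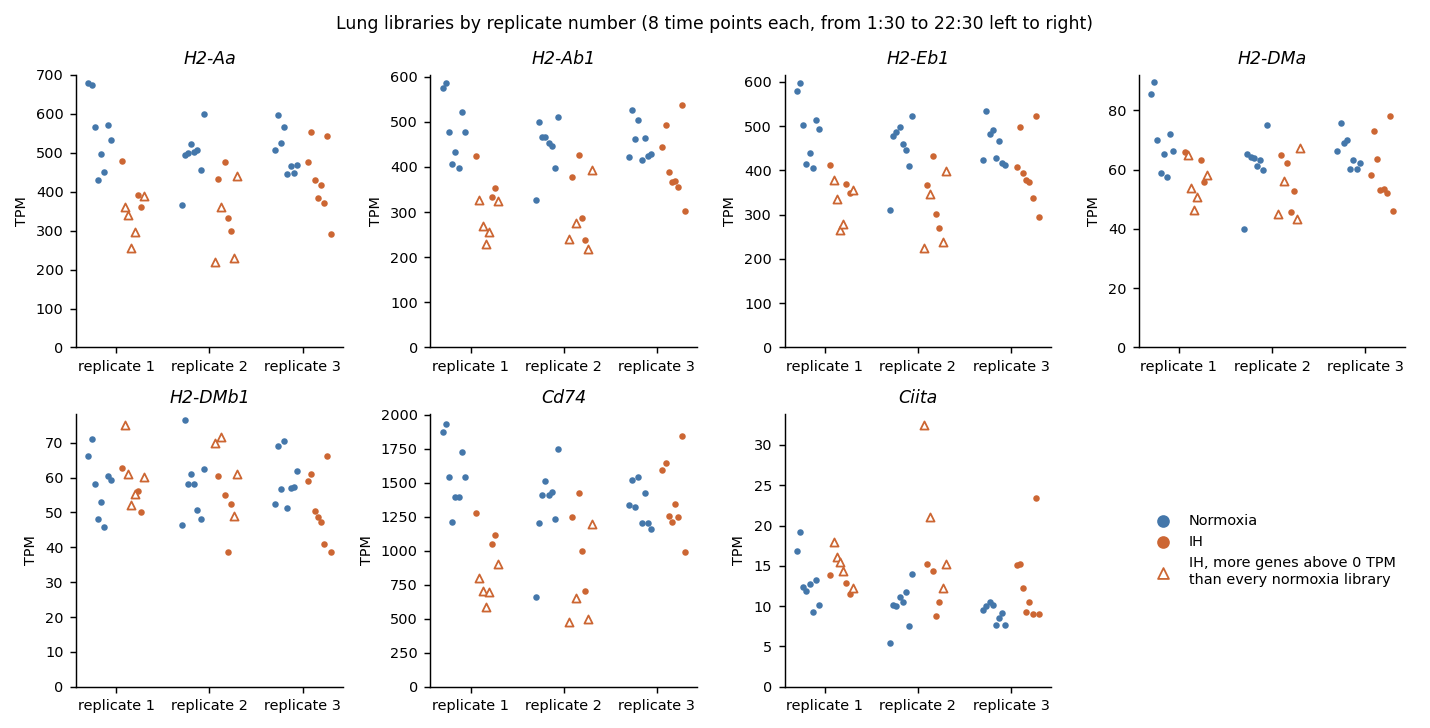
TPM of each class II gene in every lung library, in columns by replicate number with the 8 time points from left to right. Blue points are normoxia, orange points IH, and open triangles the 9 IH libraries with more genes above 0 TPM than every normoxia library. For H2-Aa, 22 of 24 IH libraries lie below the normoxia median of 504.0 TPM, and the 9 triangles lie between 219.5 and 439.9 TPM.

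The size of the lung change depended on scaling and on the 9 libraries. Scaling by the median of ratios put the median change of all lung genes at -0.08, and TPM as deposited put it at 0.21. On TPM as deposited the log2 changes were -0.46 for H2-Aa, -0.46 for H2-Ab1, -0.41 for H2-Eb1, -0.21 for H2-DMa and -0.48 for Cd74, all past the test, while H2-DMb1 was at -0.07 (limma adjusted p = 0.370) and Ciita rose by 0.38 (limma adjusted p = 0.0030). There, 5 class II genes were called lower and 1 higher, against 6 and 0 after scaling, and 0 reached 1.5-fold. Of all lung genes, 10.7% were then lower and 55.0% higher, against 41.5% and 28.9% after scaling. Relative to the median of all genes, H2-Aa stood at -0.67 on TPM as deposited.

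In the 9 IH libraries with many detected genes, the median of Cd74 was 697.4 TPM, against 1251.6 in the other 15 IH libraries and 1410.3 in normoxia. H2-Aa had medians of 339.8, 418.4 and 504.0 TPM in the same order, and Ciita 15.5, 12.3 and 10.2. Alveolar type 2 markers moved with them: their summed level had a median of 20153 TPM in the 9 libraries (14827 to 36900), 43471 in the other 15 and 46116 in normoxia. Endothelial markers had medians of 592.1, 1049.1 and 1138.2 TPM in the same order, and B cell markers went another way, at 230.0, 133.7 and 195.0 TPM. The part of these cells was not tested.

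Without the 9 libraries, chosen after their values were seen, the log2 changes were -0.59 for H2-Aa, -0.57 for H2-Ab1, -0.57 for H2-Eb1, -0.42 for H2-DMa, -0.42 for H2-DMb1 and -0.44 for Cd74 (limma adjusted p = 7.71e-05). All 6 still passed, where 35.5% of all genes were lower, 1 of them (H2-Aa) at 1.5-fold, and Ciita was at -0.03. With the number of genes above 0 as a term in the fit, 5 passed (-0.25 to -0.49), where 52.5% of all genes did in either direction, and Cd74 was at 0.12 (limma adjusted p = 0.393).

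Within replicate numbers 1, 2 and 3, the 8 IH libraries against the 8 of normoxia gave log2 changes of -0.84, -0.94 and -0.56 for H2-Aa and of -1.07, -1.02 and -0.29 for Cd74. Replicate number 3, which held none of the 9 libraries, thus had the smallest Cd74 change. H2-DMb1 had the opposite order, at -0.18, -0.42 and -0.54, and Ciita stood at -0.08, 0.21 and 0.11. The number of class II genes past the test was 5, 6 and 6 in the 3 replicate numbers, and 6 whichever of them was left out. Of all lung genes, 66.3%, 50.8% and 59.2% passed in either direction within numbers 1, 2 and 3. With number 1, 2 or 3 left out, 61.5%, 61.3% and 70.1% did.

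**Figure D3:**
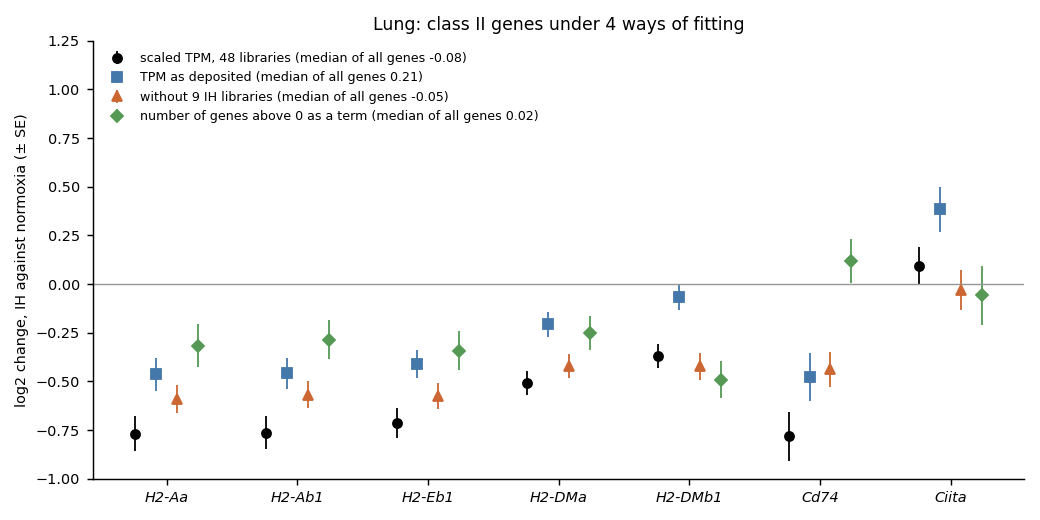
Log2 change in the lung, IH against normoxia, with its SE for each class II gene under 4 ways of fitting: scaled TPM of all 48 libraries (black), TPM as deposited (blue), without the 9 IH libraries (orange) and with the number of genes above 0 as a term (green). H2-Aa, H2-Ab1, H2-Eb1, H2-DMa and H2-DMb1 stay below 0 in all 4, and Cd74 runs from -0.78 to 0.12.

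Ratios of 2 class II genes within a library do not depend on scaling. In the lung the ratio of Ciita to H2-Aa had a lowest, median and highest value of 0.0149, 0.0205 and 0.0286 in normoxia and of 0.0242, 0.0325 and 0.148 in IH. All 24 IH libraries lay above the normoxia median and 18 above every normoxia library. The ratio of H2-DMa to H2-Aa was 0.109, 0.128 and 0.137 in normoxia and 0.122, 0.152 and 0.204 in IH, with 20 IH libraries above all of normoxia. H2-Aa and H2-Ab1, the chains of the A molecule, kept a median ratio of 1.12 in both groups, and Cd74 to H2-Aa had medians of 2.78 and 2.81. In the 15 IH libraries outside the 9, the ratio of Ciita to H2-Aa was above the normoxia median in 15 and above all of normoxia in 9, and that of H2-DMa to H2-Aa in 13 and 11. The equal medians of Cd74 to H2-Aa hid opposite groups: the ratio was 1.82 to 2.73 in the 9 libraries, all below the normoxia median, and 2.36 to 3.398 in the other 15, of which 12 lay above the normoxia median and 6 above every normoxia library. In muscle the ratio of Ciita to H2-Aa had medians of 0.00890 in normoxia and 0.0115 in IH, with 22 IH libraries above the normoxia median. In heart, kidney, liver and cerebellum between 4 and 13 IH libraries did.

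Other class II genes, class I genes and the markers of cell types that carry class II were counted in the same lung fit. The counts of each list are to be read against all genes, of which 41.5% were lower and 28.9% higher. Of the other class II chains, 3 of 4 tested were lower (median -0.46): H2-Oa, part of the inhibitor of the exchange factor, at -0.75, H2-DMb2 at -0.47 and H2-Eb2 at -0.44, while H2-Ob was at 0.10 (limma adjusted p = 0.651). H2-DMb2 is a near-identical copy of H2-DMb1, and the division of reads between them is uncertain. H2-Ea, the alpha partner of H2-Eb1, was under the filter, at a mean of 0.0707 TPM in normoxia and 0.194 in IH, and listed at 0 in 9 and 6 of 24 lung libraries; the E beta chain was thus present at 466.9 TPM with almost no alpha chain transcript. Factors that bind the class II promoter were mixed, with 2 lower and 3 higher of 7 (median 0.09), such as Rfx5 at 0.34, Creb1 at 0.22 and Rfxap at -0.25.

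Genes that prepare peptides for class II were lower in 5 of 8 (median -0.39), led by the endosomal proteases and reductase Lgmn (-0.67), Ifi30 (-0.52), Ctsb (-0.52) and Ctsl (-0.44). The interferon gamma pathway, which induces Ciita, was lower in 6 of 7 (median -0.24), with Ifngr1 at -0.39, Jak1 at -0.34 and Irf1 at -0.30. MHC class I presentation was lower in 8 of 9 (median -0.50), with the shared light chain B2m at -0.61, the heavy chain H2-D1 at -0.60 and the immunoproteasome subunits Psmb9 at -0.53 and Psmb8 at -0.51. On TPM as deposited, the summed means in normoxia and IH were 1062.0 and 1088.6 TPM for the class II processing genes. They were 401.4 and 408.2 TPM for the interferon gamma pathway and 3931.2 and 3299.5 for class I presentation. On the scaled values, the class II genes were therefore not the only presentation genes called lower in the IH lung, where 41.5% of all genes were.

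B cell markers were lower in 4 of 10 (median -0.29), near the 41.5% of all genes, and 6 did not pass. Their largest changes were in Cd79a at -0.89, Cd79b at -0.87, Fcrla at -0.83 and Ms4a1 at -0.53. The summed level of B cell markers ran from 116 to 314 TPM in normoxia and from 46.5 to 362 in IH. Dendritic cell markers split into 3 lower and 3 higher of 7 (median 0.13), with Ccr7 at -0.65 and Cd209a at -0.47 but Itgax at 0.57 and Clec9a at 0.46, and their sum ran from 41.9 to 86.5 TPM in normoxia and from 68.5 to 133 in IH. Macrophage markers were lower in 3 and higher in 2 of 10 (median 0.04), with the complement genes C1qa, C1qb and C1qc from -0.65 to -0.52 and Siglecf at 0.73. Microglia and Kupffer cell markers were lower in 3 of 4 (median -0.33) and T cell markers in 4 of 6 (median -0.31), led by Cx3cr1 at -0.71 and Cd3g at -0.62.

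Alveolar type 2 markers were lower in 6 of 6 (median -0.63), with the surfactant genes Sftpc at -0.79, Sftpb at -0.74 and Sftpd at -0.63, and their sum ran from 34245 to 50323 TPM in normoxia and from 14827 to 47651 in IH. Endothelial markers were lower in 5 of 5 (median -0.76), led by Vwf at -0.91, with sums from 629 to 1423 TPM and from 541 to 1220. Without the 9 libraries, class II processing genes were no longer mostly lower, with 1 lower and 1 higher of 8 (median -0.08), and the interferon gamma pathway was lower in 3 of 7 (-0.19), near the 35.5% of all genes. Promoter factors stood at 2 lower and 3 higher of 7 (0.12), dendritic cell markers at 2 and 2 of 7 (-0.06), macrophage markers at 3 and 4 of 10 (0.13), and microglia and Kupffer cell markers were lower in 2 of 4 (-0.28). B cell markers were lower in 7 of 10 (median -0.71), T cell markers in 6 of 6 (-0.57), other class II chains in 4 of 4 (-0.65), class I genes in 8 of 9 (-0.42), alveolar type 2 markers in 4 of 6 (-0.25) and endothelial markers in 5 of 5 (-0.38), against a median of -0.05 over all genes. The part of these cell types in the class II change was not tested.

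**Figure D4:**
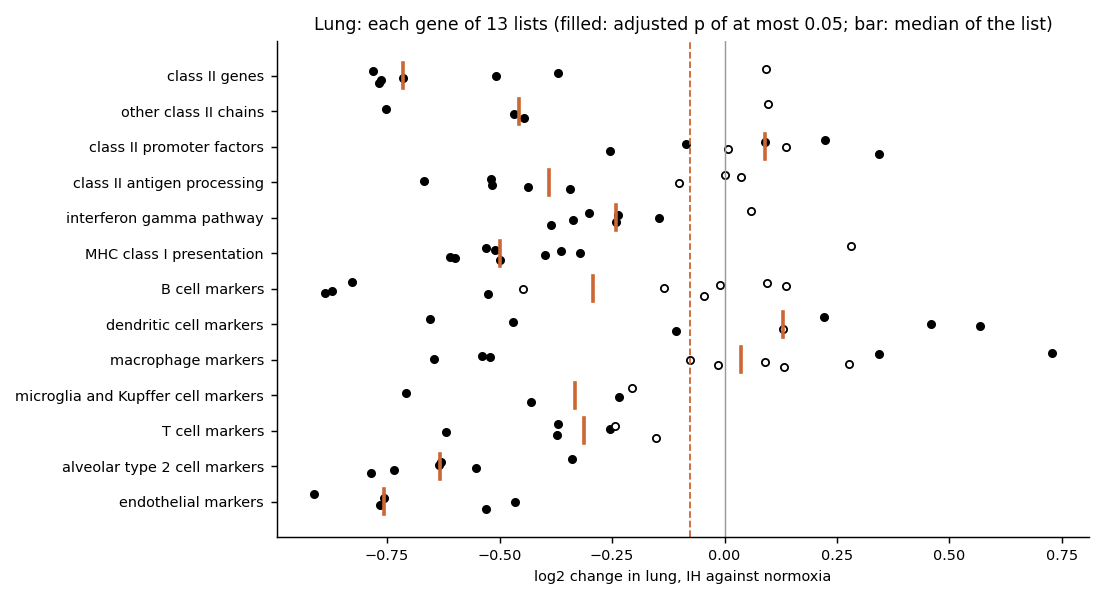
Log2 change in the lung, IH against normoxia, of each gene in 13 lists, with filled points past an adjusted p of 0.05, an orange bar at the median of a list and a dashed line at the median of all genes (-0.08). The class II genes have a median of -0.71, near those of endothelial (-0.76) and alveolar type 2 markers (-0.63).

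In muscle the same 6 genes were lower after IH, by smaller amounts. H2-Aa had a lowest, median and highest value of 61.5, 106.7 and 172.7 TPM in normoxia and of 42.7, 82.2 and 237.7 in IH, and the groups overlapped, with 4 IH libraries below all of normoxia and 1 above. Its log2 change was -0.43 ± 0.109 (limma adjusted p = 0.00562). Cd74 ran over 130.3, 232.0 and 379.9 TPM in normoxia and 85.3, 178.2 and 474.5 in IH, for a log2 change of -0.44 ± 0.104 (limma adjusted p = 0.00347). H2-Ab1, H2-Eb1, H2-DMa and H2-DMb1 changed by -0.41, -0.42, -0.27 and -0.31 (limma adjusted p from 0.00584 to 0.0423), and Ciita was at -0.03 (adjusted p = 0.887). Against these 6 of 7, 4.89% of 12824 genes tested were lower in muscle. With 1.5-fold required as well, 0 of 7 passed, 6 of them at an unadjusted p under 0.05, and 0.374% of all genes did.

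The highest muscle value in IH of all 7 genes was in 1 library, replicate 2 at 16:30, and without it 6 genes still passed (-0.31 to -0.49). Without all libraries of replicate number 1, 2 or 3, however, 5, 3 and 1 passed, where 11.9%, 2.63% and 9.44% of all genes did in either direction. On TPM as deposited 0 of 7 passed (-0.34 to 0.04), with the median of all muscle genes moved from -0.004 to 0.09 and the share of all genes called lower from 4.89% to 0.632% (called higher, from 5.48% to 14.5%). Of the other lists in muscle, 0 genes passed among 9 of class I presentation, 8 of class II processing, 7 of the interferon gamma pathway, 7 promoter factors and 5 endothelial markers in limma, and 1 of 3 dendritic cell markers was lower. B cell markers summed to a median of 3.22 TPM in normoxia and 3.50 in IH.

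In the kidney 4 of 6 class II genes tested were lower, where 11.5% of 12902 genes were. H2-DMb1, highest there after the lung, ran over 8.56, 13.9 and 17.0 TPM in normoxia and 6.46, 10.53 and 14.02 in IH. 23 of 24 IH libraries lay below its normoxia median, and the log2 change was -0.31 ± 0.060 (limma adjusted p = 0.000180). H2-DMa changed by -0.22 (adjusted p = 0.00924), H2-Ab1 by -0.28 (0.0146) and H2-Eb1 by -0.25 (0.0462) in limma, while H2-Aa at -0.23 (adjusted p = 0.0607) and Cd74 at -0.18 (adjusted p = 0.113) did not pass. Ciita was under the mean of 1 TPM required for the test, and without that filter its log2 change was -0.22 (limma adjusted p = 0.00776). None of the 6 reached 1.5-fold in limma, 6 of them having an unadjusted p under 0.05, and 0.783% of kidney genes did. Without replicate number 1, 2 or 3 the number of class II genes that passed was 1, 5 and 1. Of all genes, 17.3%, 19.7% and 15.5% then passed in either direction.

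In heart, liver and cerebellum 0 of 6 class II genes tested passed in limma, with 2, 0 and 0 at an unadjusted p under 0.05. Either way of change counted, 45.2% of heart genes, 24.3% of liver genes and 15.0% of cerebellum genes passed, and 2.95%, 3.65% and 2.64% did at 1.5-fold. Heart changes ran from -0.24 for H2-Aa (95% interval -0.48 to 0.01) to -0.06 for Cd74 (-0.30 to 0.17). Liver changes ran from -0.24 for H2-Ab1 (-0.51 to 0.04) to -0.03 for H2-DMa (-0.23 to 0.16). Cerebellum changes ran from -0.27 for Cd74 (-0.70 to 0.15) to 0.10 for H2-DMb1 (-0.10 to 0.30). For H2-Aa and H2-Ab1, the intervals in all 3 tissues include a fall as large as that in muscle. Liver replicate numbers went different ways, at 0.24 to 0.41 over the 6 genes in number 2 and -0.86 to -0.53 in number 3. Number 2 includes the IH liver library at 13:30 with 3401 TPM of heart markers. That library also had the highest mean of the 6 genes in IH liver. Without it, 0 of the 6 passed in the liver (-0.28 to -0.06), where 29.0% of all genes did. In the cerebellum 1 gene passed once replicate number 3 was left out, where 35.1% of all genes did. Without the IH library of replicate 3 at 1:30, 0 passed there (-0.40 to 0.05). The heart without the normoxia library of replicate 3 at 7:30 also had 0 of 6 past the test, and without the 5 heart libraries with over 100 TPM of T cell markers (2 normoxia, 3 IH) H2-DMa passed (-0.20, limma adjusted p = 0.0442).

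**Figure D5:**
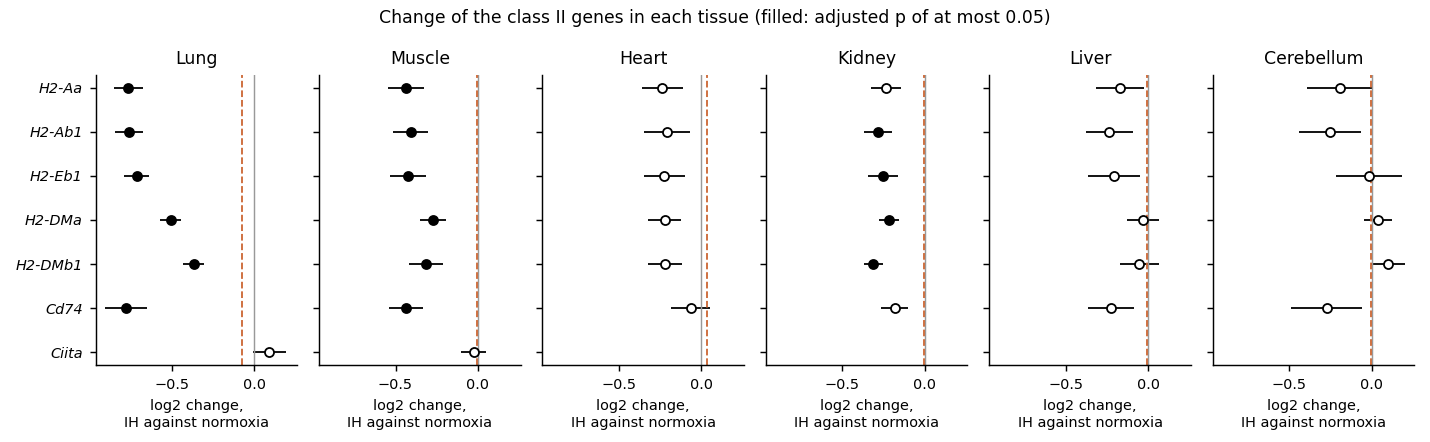
Log2 change, IH against normoxia, with its SE for each class II gene in 6 tissues, filled where the adjusted p was at most 0.05, with a dashed line at the median of all genes of the tissue. 6 genes are filled in lung, 6 in muscle and 4 in kidney, and the lung values reach -0.78.

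The IH change of the lung was set against that of each other tissue by a treatment-by-tissue interaction in limma. Of 7 class II genes, 6 passed against cerebellum, 5 against heart, 6 against kidney, 6 against liver and 5 against muscle, while 51.2%, 65.5%, 62.4%, 55.6% and 57.5% of all genes did. Most genes of the transcriptome thus differed in this way. H2-Aa, H2-Ab1, H2-Eb1, H2-DMa and Cd74 passed in all 5 comparisons, with the lung the lower by 0.28 (H2-DMa against muscle) to 0.78 (H2-Eb1 against cerebellum) on the log2 scale. Medians over all genes were -0.18 to -0.12 in these comparisons. H2-DMb1 passed against cerebellum and liver (-0.55 and -0.41) and was at -0.19, -0.11 and -0.09 against heart, kidney and muscle. Ciita had the opposite sign, at 0.28 against kidney (limma adjusted p = 0.0337), the one comparison in which it passed. Its kidney means were 0.974 TPM in normoxia and 0.726 in IH, under the filter of 1 TPM. The filter was taken over both tissues here, so Ciita entered through its lung level. With a pseudocount of 1 in place of 0.5, 0 interactions passed with the lung the higher.

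All 5 comparisons share the lung libraries, and tissues may come from the same mice. Of the 35 tests 28 passed, 27 with the lung change the lower and 1 with it the higher. On TPM as deposited 8 passed, 2 with the lung the lower and 6 with it the higher, so which tests passed depended on the scaling. Passed or not, the lung change there was the lower for 4 (kidney) to 6 (cerebellum) of the 7 genes. After scaling it was the lower for 6 in each comparison. Without the 9 IH lung libraries 17 passed, all with the lung the lower, and 0 of 7 passed against muscle. Without replicate number 1, 2 or 3 in both tissues, 19, 7 and 26 of the 35 passed. The share of all genes passing under these alternatives is not given. The counts therefore do not tell a loss of calls particular to the class II genes from one across the transcriptome.

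None of the class II genes had a 24-hour rhythm past the test in any tissue. In normoxia, 0 of 39 pairs of gene and tissue passed the limma test of a cosine (lowest adjusted p = 0.133), 7 having an unadjusted p under 0.05. In a rank test like that of JTK, with Kendall's statistic against cosine orderings, 0 of 41 passed with 9 unadjusted. The share of all genes passing the rank test is not given, so its counts cannot be set against all genes. In IH, 0 of 38 passed in limma (2 unadjusted) and 0 of 41 in the rank test (2 unadjusted). Over all genes the cosine passed in normoxia for 9.70% in lung, 17.8% in liver, 21.0% in kidney, 6.41% in muscle, 0.608% in heart and 0.00658% in cerebellum. In IH these were 4.15% in lung, 2.55% in liver, 5.62% in kidney, 8.69% in muscle, 4.37% in heart and 0.0207% in cerebellum. 4 of the 7 pairs with a low unadjusted p were in the cerebellum, such as H2-Ab1, with a fitted peak 1.84 times its trough (limma adjusted p = 0.181). The rhythm differed between treatments for 0 of 38 pairs in limma, 0 of them at an unadjusted p under 0.05, and for 0% of all genes in each tissue.

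Within a tissue and treatment the class II genes mostly moved together from library to library. Across tissues and treatments (24 libraries each), H2-Aa, H2-Ab1 and H2-Eb1 each had an r of 0.88 to 0.99 with the mean of the other members. In the lung in normoxia, Cd74 had an r of 0.77 (0.76 in IH), H2-DMb1 of 0.51 (0.45) and Ciita of 0.59 (0.07). In the 15 IH lung libraries outside the 9, these were 0.85 for Cd74, 0.80 for H2-DMb1 and 0.85 for Ciita. Libraries share tissue composition and scaling, so these values are descriptions. The genes most like the members over the 6 tissues in normoxia, by mean r of 24 libraries per tissue among 9870 genes, were Psmb8 (0.75), H2-M3 (0.71), Tap1 (0.70), H2-Q7 (0.67), Psmb9 (0.67), Hcls1 (0.67), Ctss (0.66), Selplg (0.66), H2-Q4 (0.65) and Gbp2 (0.64), where the median gene had -0.03. Psmb8, Psmb9 and Tap1 serve class I presentation, Ctss cleaves the invariant chain, and H2-M3, H2-Q7 and H2-Q4 encode class I heavy chains. Gbp2, an interferon-induced GTPase, ranged from 0.07 in heart to 0.88 in kidney.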

How the data were processed

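Per the study's methods, the authors quantified poly(A) RNA-seq reads with Kallisto against the Ensembl mouse reference, release 102, and the deposited tables hold 1 row per gene; the submitters' notes also name bcl2fastq, FastQC 0.11.3, DESeq2 and mm10. The deposited values are TPM, so depth is unknown and no counting interval can be given. The authors' DESeq2 test needs counts, so limma 3.58.1 (R 4.3.3) was run on log2(TPM + 0.5) after median-of-ratios scaling within each tissue, over genes averaging 1 TPM or more. Tests were 2-sided with treatment as the only term, Benjamini-Hochberg adjusted over all genes tested in a tissue, at 0.05. A 1.5-fold change was a second threshold. The interaction of tissue and treatment, a 24-hour cosine and its difference between treatments were fitted alike. Fits were tested on simulated data. Figures and permutations used Python 3.11.15, scipy 1.17.1 and matplotlib 3.10.9.

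Groups, time points and replicate numbers came from the sample labels. P-values take each library as a separate mouse. Deviations of same-numbered normoxia and IH samples correlated at above 0.1 for all 3 numbers in muscle alone (r = 0.155, 0.375 and 0.650). Unlike numbers in muscle ran from -0.673 to 0.671, so these values do not show that the numbers mark pairs. A block of replicate numbers was fitted in every tissue as an alternative. All 7 members are named; from each other list, at most 4 genes with the largest lung change; and the 10 genes most like the members. Members and lists were chosen with earlier results of these data known. Levels between tissues were compared on TPM as deposited. Alternatives were other scaling (for levels, over all tissues), pseudocounts and filters, further terms, the block and left-out libraries.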

Additional observations from a re-analysis of the deposited data

Results flagged for a closer look

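In 28 of the 35 comparisons of the lung with another tissue, the difference between the 2 IH changes passed its own limma interaction test. All use the same 48 lung libraries, so they are not independent, and 51.2% to 65.5% of all genes passed as well. On TPM as deposited 8 of the 35 passed, 2 with the lung change the lower and 6 with it the higher. Values are the log2 change in the lung minus that in the other tissue.

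Against the cerebellum the difference was -0.65 for H2-Aa, -0.59 for H2-Ab1, -0.78 for H2-Eb1, -0.63 for H2-DMa, -0.55 for H2-DMb1 and -0.59 for Cd74, the last with a limma adjusted p of 0.0496. Against the heart it was -0.59 for H2-Aa, -0.61 for H2-Ab1, -0.54 for H2-Eb1, -0.33 for H2-DMa and -0.77 for Cd74. Against the kidney it was -0.59 for H2-Aa, -0.54 for H2-Ab1, -0.52 for H2-Eb1, -0.35 for H2-DMa, -0.66 for Cd74 and 0.28 for Ciita. Ciita averaged under 1 TPM in the kidney and met the filter through its lung level, and with a pseudocount of 1 it did not pass. Against the liver it was -0.71 for H2-Aa, -0.63 for H2-Ab1, -0.61 for H2-Eb1, -0.58 for H2-DMa, -0.41 for H2-DMb1 and -0.67 for Cd74. Against muscle it was -0.38 for H2-Aa, -0.40 for H2-Ab1, -0.34 for H2-Eb1, -0.28 for H2-DMa and -0.39 for Cd74.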

How the results depend on the processing

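Class II genes that passed within a tissue kept their direction and their side of the threshold in 195 of 252 values under alternatives, missed it in 55 and reversed in 2. Of 364 values of the interactions that passed, 248 kept both, 105 missed the threshold and 11 reversed. The replicate block left 6 genes past the test in the lung, 6 in muscle, 4 in the kidney and 28 interactions, and changed no call of a tissue. Without a replicate number, the count ranged from 1 to 5 in muscle, 1 to 5 in the kidney and 0 to 1 in the cerebellum, and from 7 to 26 among the interactions. On TPM as deposited 0 passed in muscle and 8 of the interactions, 6 of them with the lung the higher. Upper quartile scaling called 2 in the heart, where 43.5% of all genes passed. Without the libraries with over 100 TPM of T cell markers 1 passed there, against 51.9% of all genes. With 1 replicate number alone, 0, 0 and 2 passed in the kidney and in muscle, 1 in the liver with number 2 and 2 interactions with number 3. Of all genes, 28.3% passed in the kidney and 8.28% in muscle with number 3, and 17.3% in the liver with number 2. Without the 9 IH lung libraries, an alternative chosen after seeing the data like that of the T cell markers, 17 interactions passed.

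Signs reversed for H2-Eb1 in the kidney (0.038) and H2-DMa in the liver (0.33) with replicate number 2 alone, and for Cd74 in the lung with the number of genes above 0 as a term (0.12). On TPM as deposited, the lung minus kidney difference became 0.051 for H2-DMa and 0.29 for H2-DMb1, and lung minus liver 0.10 for H2-DMb1. With replicate number 3 alone, lung minus liver became 0.29 for H2-Aa, 0.23 for H2-Ab1, 0.32 for H2-Eb1, 0.065 for H2-DMa, 0.013 for H2-DMb1 and 0.44 for Cd74, lung minus muscle 0.017 for H2-Aa and 0.14 for Cd74, and lung minus kidney 0.0040 for Cd74. With scaling over all tissues, the ratio of levels in normoxia became 0.642 for H2-DMa in cerebellum to liver and 0.991 for Cd74 in kidney to liver. The cause was not tested. TPM holds no counts, so what sequencing depth limits could not be computed.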

Other observations

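Libraries of different tissues carry the same time and replicate labels, and the labels do not record whether they came from the same mouse. The mean log2 level of H2-Aa, H2-Ab1, H2-Eb1, H2-DMa, H2-DMb1 and Cd74, centred within treatment and time point, was compared between tissues over the 48 shared labels, for 15 pairs of tissues, with 100000 permutations within treatment and time point and Benjamini-Hochberg adjustment over the 15. Kidney and liver had Pearson's r = 0.82 (permutation p = 1e-05, the smallest possible, adjusted p = 0.00015) and Spearman's rho = 0.81 (permutation p = 1e-05), with r = 0.81 without the 2 libraries farthest from the median. Kidney and muscle had r = 0.73 (permutation p = 2e-05, adjusted p = 0.00015) and rho = 0.75 (permutation p = 3e-05), with r = 0.72 without those 2. Liver and muscle had r = 0.60 (permutation p = 0.00088, adjusted p = 0.0044) and rho = 0.54 (permutation p = 0.00219), and heart and kidney r = 0.50 (permutation p = 0.00812, adjusted p = 0.0305) and rho = 0.57 (permutation p = 0.00233). Without the 2 farthest libraries these were 0.56 and 0.71. The 5 pairs that include the lung had r from -0.13 to 0.05. Over the other genes tested, the 95th percentile of r was 0.45 for kidney and liver and 0.43 for kidney and muscle, with medians of 0.13 and 0.03.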
